A study of Mus musculus with 12 samples.

Results

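Glycolysis and pentose phosphate genes were followed in mouse T cell lymphomas and DN3 thymocytes with and without TCF-1. The 35 genes were chosen by name: transporters of glucose and lactate, the enzymes from hexokinase to pyruvate kinase, lactate dehydrogenase, pyruvate dehydrogenase and its kinases, the enzymes that set fructose 2,6-bisphosphate and 2,3-bisphosphoglycerate, and the pentose phosphate pathway. No threshold on a value defines the list, and where a gene had several array rows, the row with the highest mean signal stood for it. Of these 35 genes, 31 had an array row with only their own symbol, among 19938 genes with such a row. Pfkfb4 was too dim for the test, with a mean log2 signal of 4.65 over the 12 arrays, under the limit of 4.78. This left 30 genes among the 14953 tested. Gapdh, which is in 25 rows that name several genes, and Gpi1, Eno1 and G6pdx were not analysed here.

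The lymphoma group held 6 arrays of blasts sorted from the thymus of TCF-1 KO mice with disease, aged 12 to 40 weeks. The KO group held 3 arrays of DN3 thymocytes from TCF-1 KO mice aged 8 to 12 weeks, and the WT group 3 arrays of DN3 thymocytes from wild-type mice of the same age range. All mice were labelled C57/BL6 and no agent is named. Lymphoma mice and KO DN3 mice thus shared the loss of TCF-1, an HMG-box transcription factor of the T lineage, and the lymphoma mice could be older than both DN3 groups. Replicates are labelled biological, but nothing states kinship between the mice, the deleted allele or whether mice were pooled, and p-values cover only the spread among these arrays. RNA from 800 pg to 50 ng was amplified before hybridisation. The TCF-1 transcript itself was not analysed here.

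Signals are RMA values on a log2 scale, on which a difference of 1 is a doubling. The number of arrays limits the precision: the median half-width of the 95% interval of a member's difference was 0.30 for KO against WT DN3, 0.27 for lymphoma against WT DN3 and 0.28 for lymphoma against KO DN3. The 12146 rows without a gene name were searched for gaps of at least 1 log2 unit that split the arrays into 2 sides. The commonest split was kept. It was shown by 35 rows, and the next split by 26. The median of the 35 rows was 5.88 to 6.44 in lymphomas 1 and 2, KO replicate 1 and WT replicate 1, the smaller side. In the other 8 arrays it was 8.32 to 9.03. The labels name no batch, so values within each side are given beside the called members. The 23 differences called below in 3 lists of further genes had the same sign on both sides. They were called on these same arrays, and the smaller side holds 1 array of each DN3 group. The signs are therefore no check on the split. Of the 14 T-lineage markers, 13 were measured and all were above the limit for testing in each group, with array means of 8.55 to 8.88 in lymphomas, 8.79 to 8.94 in KO DN3 and 8.87 to 8.94 in WT DN3 cells. Against WT DN3 cells, Dtx1 (0.92) and Gata3 (0.75) were called higher and Rag1 (-1.92), Rag2 (-1.39) and Cd3g (-0.35) lower in lymphomas. Against KO DN3 cells, Gata3 (0.89) and Cd3e (0.59) were called higher and Rag1 (-1.62) and Ptcra (-0.64) lower, and Dtx1 was called higher in KO than in WT DN3 cells (0.63, adjusted p = 0.0484). The mean of the coreceptor genes Cd4, Cd8a and Cd8b1 was 6.00 to 6.72 in lymphomas, 6.50 to 6.52 in KO DN3 and 5.42 to 5.72 in WT DN3 arrays. All 3 were higher in KO than in WT DN3 cells, with Cd8b1 (1.40, adjusted p = 0.000455) and Cd8a (1.21, adjusted p = 0.00111) called. In lymphomas 2 of the 3 were higher than in WT, with Cd8b1 called (1.43, adjusted p = 0.0026). Against KO DN3 cells 1 of the 3 was higher and none was called. Of 7 B cell genes, 6 were measured and 3 tested. Their median differences were 0.088 for KO against WT DN3, -0.092 for lymphoma against WT and -0.235 for lymphoma against KO. Only Cd79b was called, lower in lymphomas against both DN3 groups. It was 4.98 to 5.51 in lymphomas, 5.88 to 6.14 in KO and 6.05 to 6.22 in WT DN3 cells. Of 10 thymic stroma genes, Epcam was called lower in lymphomas against WT (-1.05), and Epcam (-1.06) and Foxn1 (-0.36) lower and Pecam1 (0.64) higher against KO DN3 cells, with list medians of -0.025 and -0.136. The part of these genes in the results was not tested. In sorted bulk RNA, fewer cells of a type and less RNA per cell cannot be told apart.

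Glycolysis turns glucose into pyruvate and yields ATP. Pyruvate is either reduced to lactate by lactate dehydrogenase and exported, or oxidised in mitochondria after pyruvate dehydrogenase, which the PDK kinases switch off by phosphorylation. The pentose phosphate pathway branches off glucose 6-phosphate and makes NADPH and ribose for nucleotides. Developing thymocytes take up more glucose when Notch, the pre-TCR and IL-7 drive their growth, and T cell leukaemias commonly run glycolysis in the presence of oxygen under MYC, AKT and HIF.

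In KO against WT DN3 cells, Pdk1 fell and none of the other 29 members passed the test. Pdk1 encodes a kinase that inhibits pyruvate dehydrogenase, and its signal in KO DN3 cells was 0.547 times that in WT DN3 cells. This 1 call is 3.33% of the members, beside 1.99% of all genes tested, 1.42% called lower and 0.568% called higher. The median difference of the 30 members was -0.07, against 0.03 over all genes, and 9 of 30 were above 0, against 55.3% of all genes. At an unadjusted p under 0.05 there were 4 of the 30, against 16.3% of all genes. In the rows used, the KO and WT DN3 arrays did not overlap in 4 of the 30 members, all lower in KO cells (Pgam1, Pdk1, Pdk3 and Pfkfb3). Of all genes 22.0% did not overlap in either direction, 11.6% lower and 10.4% higher.

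In lymphomas against WT DN3 cells, Pfkp and Pkm rose and no member was called lower. Pfkp is the platelet-type phosphofructokinase, and Pkm encodes pyruvate kinase M, the last enzyme of glycolysis. Both together are 6.67% of the members, beside 5.82% of all genes called, 2.96% higher and 2.86% lower. The median difference was 0.005 over members and -0.006 over all genes, with 15 of 30 members above 0. At an unadjusted p under 0.05 there were 10 members (33.3%), against 15.5% of all genes. Arrays of 5 members did not overlap (16.7%, beside 10.3% of all genes, 5.28% higher and 5.04% lower): Slc2a3, Pfkp, Pkm and Pdha1 were higher in every lymphoma than in any WT DN3 array, and Slc16a3 was lower.

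In lymphomas against KO DN3 cells, Pkm and Pdk1 rose and no member was called lower. Again 6.67% of the members were called, beside 6.62% of all genes in either direction, 4.50% higher and 2.12% lower. The median difference was 0.09 over members and -0.03 over all genes, and 20 of 30 members were above 0, against 43.5% of all genes. At an unadjusted p under 0.05 there were 7 members (23.3%), against 24.7% of all genes. Slc2a3, Pfkl, Pkm, Pdk1 and Pdk3 were higher in every lymphoma than in any KO DN3 array (16.7% of members, beside 13.6% of all genes not overlapping, 7.34% higher and 6.23% lower). In none of the 3 comparisons did a member differ by more than 1 log2 unit, and the 95% interval lay within 1 unit of 0 for 29, 28 and 29 of the 30 members in the order given. The comparisons share arrays, so their lists are not independent of each other.

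**Figure D1:**
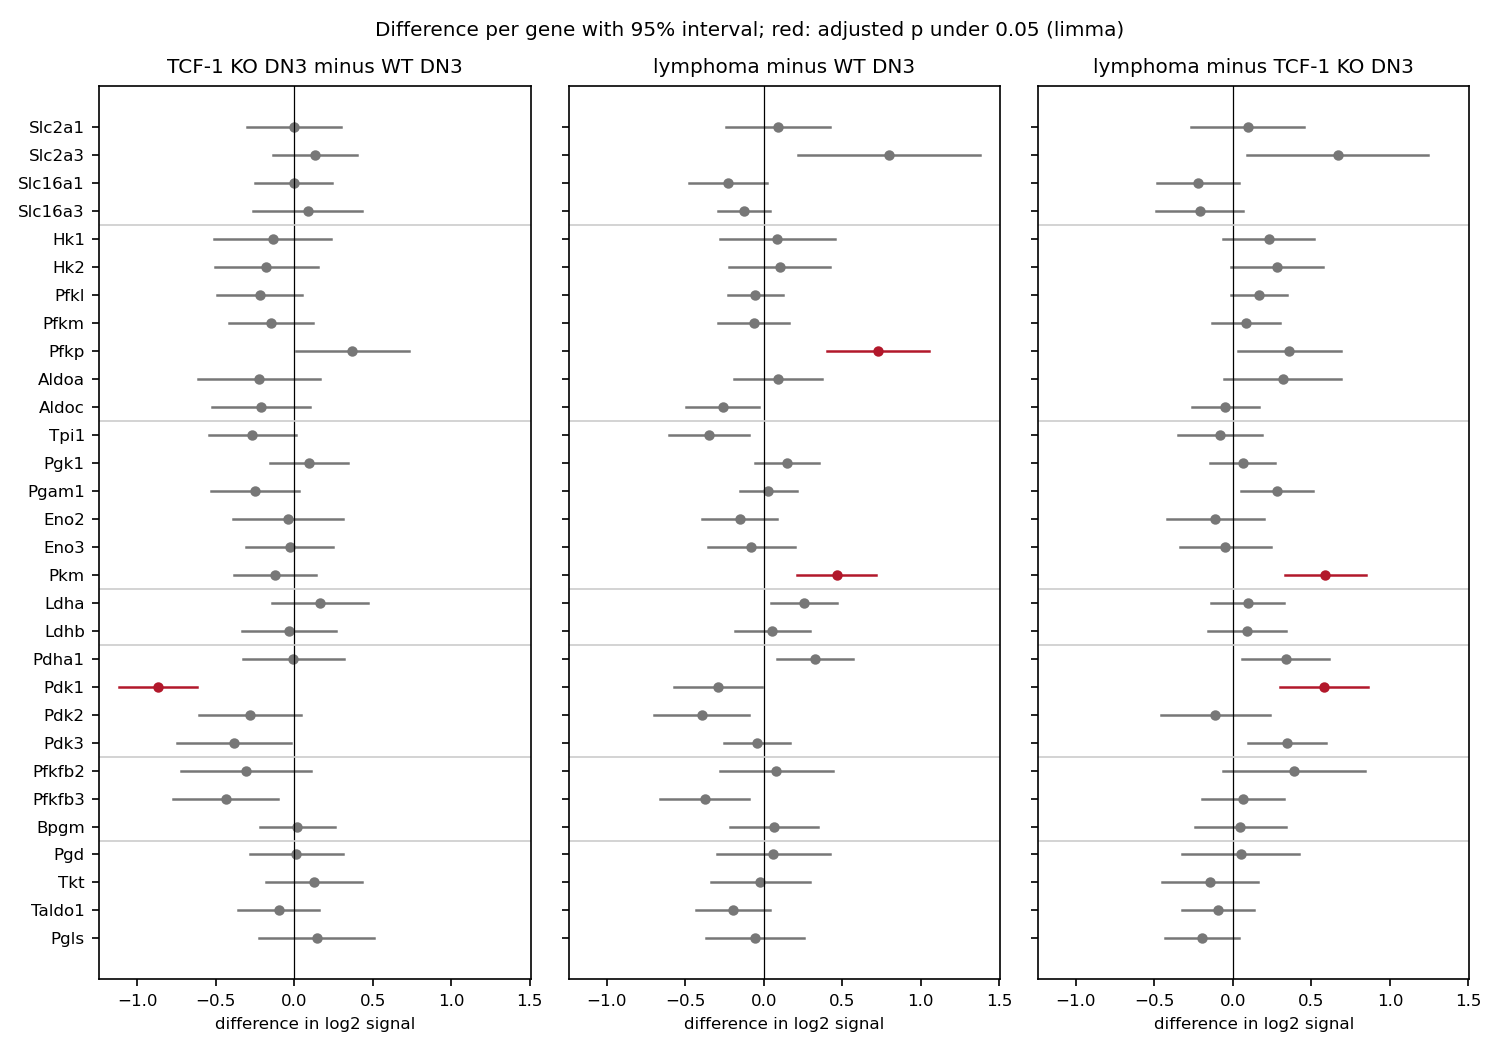
Difference in log2 signal for each of the 30 tested genes (points) with its 95% interval (lines), for KO minus WT DN3, lymphoma minus WT DN3 and lymphoma minus KO DN3 cells, with grey lines between functional groups and called genes in red. Pdk1 at -0.87 stands lowest in the first panel, Pfkp (0.73) and Pkm (0.46) are red in the second, and Pkm (0.59) and Pdk1 (0.58) in the third.

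Pyruvate dehydrogenase and its kinases held the called difference between the DN3 groups. Pdk1 had log2 signals of 6.32, 6.28 and 6.39 in the KO DN3 arrays, against 7.25, 7.09 and 7.27 in the WT DN3 arrays. Every KO array was below every WT array. The mean was 6.33 ± 0.06 in KO and 7.20 ± 0.10 in WT DN3 cells (SD, n = 3 each), a difference of -0.87 (SE 0.11, 95% interval -1.12 to -0.62, limma adjusted p = 0.00434). Within the sides of the array split it was -0.93 (1 array per group) and -0.84 (2 per group). Pdk1 was called in all 19 settings tried for this comparison, with adjusted p of 0.000327 to 0.0248. These settings count the main fit and are not independent. Sex as a term gave the same result as leaving out KO replicate 3, and the settings on row choice left the Pdk1 values unchanged.

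In the lymphomas Pdk1 ranged from 6.60 to 7.18 with a median of 6.92, so every lymphoma was above every KO DN3 array. Lymphomas 1 and 6 (7.18 and 7.13) lay within the WT range of 7.09 to 7.27, and the other 4 were below it. The lymphoma mean was 6.91 ± 0.23 (SD, n = 6), 0.58 above KO DN3 cells (SE 0.13, adjusted p = 0.0206) and 0.29 below WT DN3 cells (95% interval of the difference -0.57 to -0.01, adjusted p = 0.294). The call against KO DN3 cells was lost without KO replicate 1 (adjusted p = 0.0742), 2 (0.05) or 3 (0.0685), and it ranged from 0.00865 to 0.141 over 22 settings. On the 2 sides of the split the lymphoma and KO difference was 0.75 and 0.49. With sex as a term Pdk1 was also called lower in lymphomas than in WT DN3 cells (-0.473, adjusted p = 0.0223).

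The promoters of the called genes are shown because Pdk1 is reported as a Wnt target in human colon cancer cells and several glycolytic genes as HIF or MYC targets. Sequences are RefSeq's on GRCm38.p6 around a start site, 5′ to 3′ on the strand of the gene, and were picked with the values known. RefSeq promoters were matched for 34 of the 35 members (51 promoters). Capitals mark, on either strand, the letters CTTTGA or CTTTGT (cores of TCF/LEF sites), ACGTG or GCGTG (cores of hypoxia response elements) and CACGTG (the E-box, which contains ACGTG). The windows are, for Pdk1, chr2:71872974-71873273 (+), for Pfkp, chr13:6648722-6649021 (-), and for Pkm, chr9:59656326-59656625 (+) and chr9:59656977-59657276 (+).
Pdk1: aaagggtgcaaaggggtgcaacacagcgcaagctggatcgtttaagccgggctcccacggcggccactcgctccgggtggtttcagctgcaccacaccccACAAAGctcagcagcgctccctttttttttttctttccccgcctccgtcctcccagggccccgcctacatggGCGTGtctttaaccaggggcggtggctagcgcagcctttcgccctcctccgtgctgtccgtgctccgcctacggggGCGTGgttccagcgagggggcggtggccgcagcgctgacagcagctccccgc
Pfkp: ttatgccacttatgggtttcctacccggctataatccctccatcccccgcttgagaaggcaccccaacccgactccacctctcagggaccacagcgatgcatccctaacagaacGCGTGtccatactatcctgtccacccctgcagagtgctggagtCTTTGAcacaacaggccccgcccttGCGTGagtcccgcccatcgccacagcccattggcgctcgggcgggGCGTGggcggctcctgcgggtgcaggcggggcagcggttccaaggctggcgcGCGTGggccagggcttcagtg
Pkm, first start: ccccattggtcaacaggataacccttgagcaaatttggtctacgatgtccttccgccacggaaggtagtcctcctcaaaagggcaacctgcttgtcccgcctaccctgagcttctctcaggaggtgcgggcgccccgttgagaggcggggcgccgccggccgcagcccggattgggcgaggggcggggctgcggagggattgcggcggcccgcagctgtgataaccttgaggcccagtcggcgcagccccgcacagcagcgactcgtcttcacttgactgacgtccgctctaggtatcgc
Pkm, second start: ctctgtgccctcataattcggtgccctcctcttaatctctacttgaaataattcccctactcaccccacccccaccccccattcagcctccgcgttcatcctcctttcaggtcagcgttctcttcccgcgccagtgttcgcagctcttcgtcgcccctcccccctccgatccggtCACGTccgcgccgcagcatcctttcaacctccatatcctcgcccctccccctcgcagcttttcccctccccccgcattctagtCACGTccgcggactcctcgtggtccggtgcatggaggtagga

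The Pdk1 window held 1 CTTTGT and 2 GCGTG, and the Pfkp window 1 CTTTGA and 4 GCGTG. A second Pdk1 start, not shown, held 1 CTTTGA and none of the other 4. The first Pkm window held none of the 5 motifs, and the second held 2 ACGTG, read on the other strand. Of all 32851 mouse promoters of this length 16.0% hold CTTTGA, 18.7% CTTTGT, 32.4% GCGTG, 19.6% ACGTG and 7.15% CACGTG. Of the 51 member promoters 17.6%, 15.7%, 58.8%, 43.1% and 11.8% hold them in the same order. A match describes letters only.

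The other members of the pyruvate dehydrogenase group were not called. Pdk3, an X-linked kinase of the same family, was 6.39, 6.47 and 5.94 in KO DN3 arrays, against 6.55, 6.91 and 6.50 in WT DN3 arrays. The groups did not overlap, with a difference of -0.39 (SE 0.16, adjusted p = 0.276) and an adjusted p of 0.0479 with the replicate number as a block, under which 9.23% of all genes were called. The lowest array, KO replicate 3, was also the only DN3 array with a low signal of Xist, the RNA of the silenced X chromosome. In lymphomas, where 3 mice had low Xist, Pdk3 was 6.57 to 6.71 in those and 6.54 to 6.62 in the other 3. The lymphomas held Pdk3 between 6.54 and 6.71, a narrow range (SD 0.06), all above the KO arrays (difference 0.34, adjusted p = 0.0903, and 0.0437 without KO replicate 2). Pdk2 was 5.33 ± 0.25 in lymphomas, 5.44 ± 0.28 in KO and 5.73 ± 0.09 in WT DN3 cells (lymphoma against WT -0.40, adjusted p = 0.153, and 0.0417 without lymphoma 2). Pdha1, the X-linked catalytic subunit that these kinases phosphorylate, was 8.40 to 8.81 in the lymphomas (median 8.58), 7.98, 8.44 and 8.34 in KO DN3 arrays and 8.09, 8.32 and 8.37 in WT DN3 arrays. Every lymphoma was above every WT array for Pdha1, with a difference of 0.33 (95% interval 0.09 to 0.57, adjusted p = 0.137).

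Pkm was the member called in both lymphoma comparisons. Its log2 signal was 8.34 to 8.88 in the lymphomas (median 8.66), 8.15, 8.03 and 7.97 in the KO DN3 arrays and 8.28, 8.05 and 8.19 in the WT DN3 arrays. All 6 lymphomas were above all 6 DN3 arrays, with lymphomas 3 and 5 highest (8.88 and 8.76). The mean of 8.64 ± 0.19 in lymphomas (SD, n = 6) was above 8.05 ± 0.09 in KO DN3 cells (difference 0.59, SE 0.12, adjusted p = 0.0122) and 8.17 ± 0.12 in WT DN3 cells (0.46, SE 0.12, adjusted p = 0.0362). KO and WT DN3 cells differed by -0.12 (adjusted p = 0.631), a sign that turned under repeated quantile normalization. Lymphoma minus KO was 0.28 and 0.74 on the 2 sides of the array split, and lymphoma minus WT 0.16 and 0.62. The call against WT DN3 cells was lost without WT replicate 1 (adjusted p = 0.074), 2 (0.186) or 3 (0.119) and without lymphoma 3 (0.0558), 4 (0.0634), 5 (0.0755) or 6 (0.0555), and that against KO DN3 cells without KO replicate 3 (0.0692). Both calls were also lost with repeated quantile normalization and with the replicate number as a block (against WT, adjusted p = 0.0739 and 0.108). A second Pkm row, whose neighbours on the array belong to chromosome 5 and not to the gene's own chromosome 9, gave differences of 0.60 against KO and 0.48 against WT DN3 cells. In that second row lymphomas 1 and 2 (8.09 and 8.13) were below WT replicate 3 (8.20), so lymphomas and WT DN3 arrays overlapped. Every lymphoma was above the highest KO DN3 array there (8.05). These rows do not tell the M1 and M2 splice forms of the enzyme apart.

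Hexokinase to aldolase had 1 called member. Phosphofructokinase sets the pace of glycolysis and has 3 isozymes. Pfkp was 6.19 to 6.84 in the lymphomas (median 6.57), 6.08, 6.07 and 6.50 in KO DN3 arrays and 6.14, 5.68 and 5.73 in WT DN3 arrays. Lymphoma 1 (6.19) was close to WT replicate 1 (6.14), both on the smaller side of the array split, and the other 5 lymphomas were above it by more. The mean was 6.57 ± 0.24 in lymphomas and 5.85 ± 0.25 in WT DN3 cells (SD, n = 6 and 3), a difference of 0.73 (SE 0.15, 95% interval 0.40 to 1.05, adjusted p = 0.0118), and it was 0.23 on the smaller side of the split and 0.98 on the larger. KO DN3 cells lay between, at 6.22 ± 0.25 (0.37 above WT, adjusted p = 0.293, and 0.36 below lymphomas, adjusted p = 0.165). The call was lost without WT replicate 2 (adjusted p = 0.0817) or 3 (0.0737) and with the replicate number as a block (0.0961).

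The liver and muscle isozymes were not called in any comparison. Pfkl was 5.21 to 5.33 in the lymphomas, with the smallest SD of the 30 members there (0.04), 5.00, 5.20 and 5.10 in KO DN3 arrays and 5.48, 5.29 and 5.20 in WT DN3 arrays. Every lymphoma was above every KO array, by a mean of 0.17 (adjusted p = 0.228). Pfkm was 5.75 ± 0.14 in lymphomas, 5.66 ± 0.07 in KO and 5.81 ± 0.16 in WT DN3 cells. Hexokinase 2, the inducible enzyme that traps glucose in the cell, was 5.65 ± 0.23 in lymphomas, 5.37 ± 0.13 in KO and 5.55 ± 0.27 in WT DN3 cells, with adjusted p of 0.221 against KO and 0.876 against WT. Aldolase A was 7.96 ± 0.23, 7.65 ± 0.39 and 7.87 ± 0.09 in the same order, and aldolase C 5.10 ± 0.11, 5.15 ± 0.15 and 5.37 ± 0.23.

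**Figure D2:**
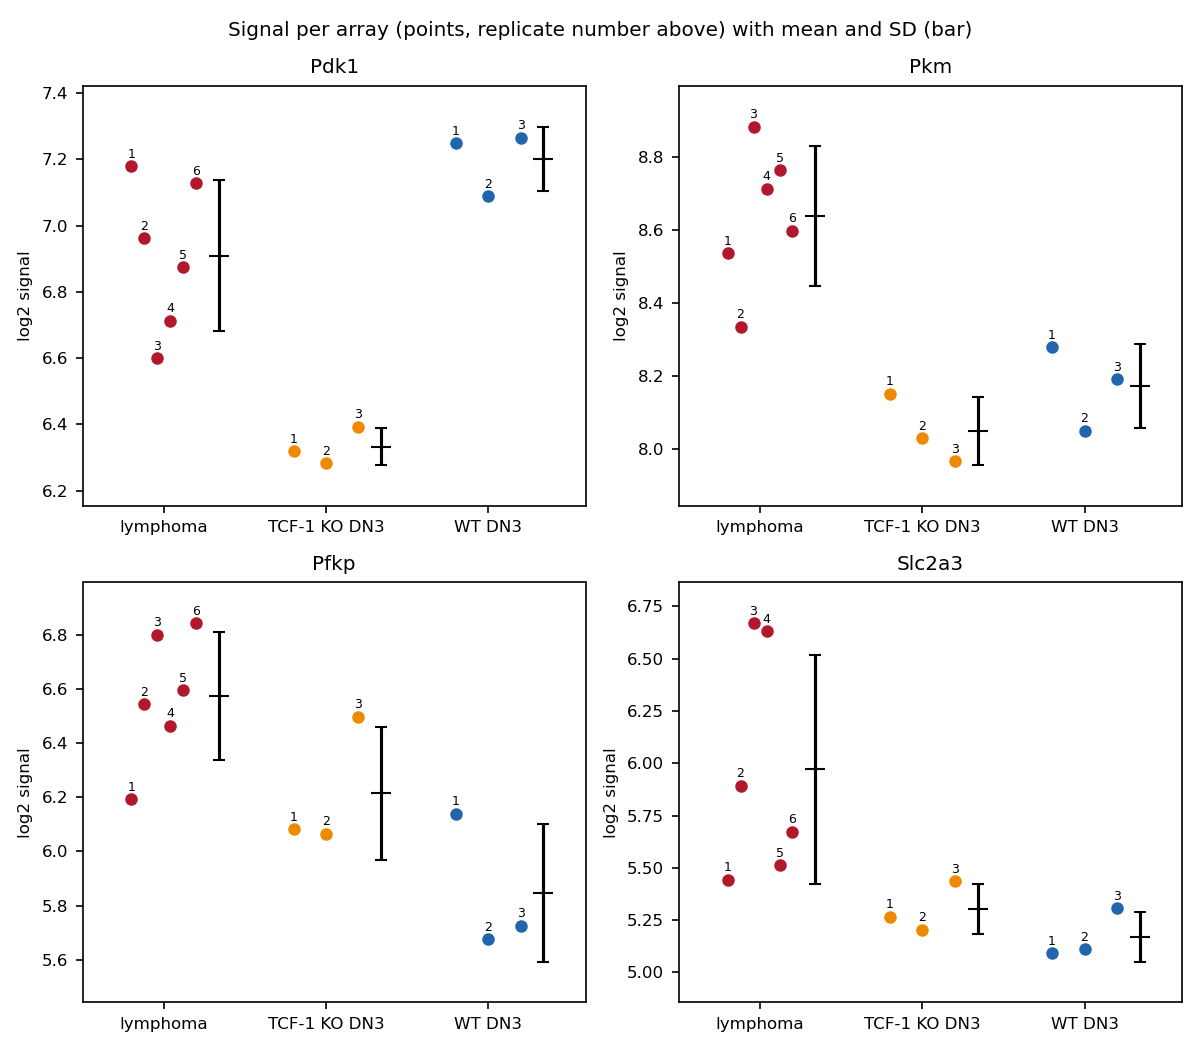
Log2 signal of Pdk1, Pkm, Pfkp and Slc2a3 in each array, with lymphomas left, TCF-1 KO DN3 cells in the middle and WT DN3 cells right (points, with the replicate number above; bars are mean and SD). Pdk1 is lowest in the 3 KO arrays (6.28 to 6.39), Pkm is highest in the 6 lymphomas, and Slc2a3 is high in lymphomas 3 and 4.

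For Hk1 and Ldhb the choice of row matters. The brighter Hk1 row, used for the test, averaged 11.0 and lies on the array among rows of chromosome 14 (19 of its 20 neighbours), while a second row averaged 5.91 and lies among rows of chromosome 10, where the gene is (20 of 20). In the first row lymphomas were 0.23 above KO and 0.09 above WT DN3 cells, and in the second 0.06 and 0.17 below. Ldhb behaved likewise: its brighter row (7.72) lies among rows of chromosome 19 (17 of 20) and its other row (5.22) among rows of chromosome 6 (19 of 20), the chromosome of the gene. Lymphoma minus KO DN3 was 0.09 in the first and -0.16 in the second. Neither gene was called in either row, and the level of neither can be read from these rows.

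**Figure D3:**
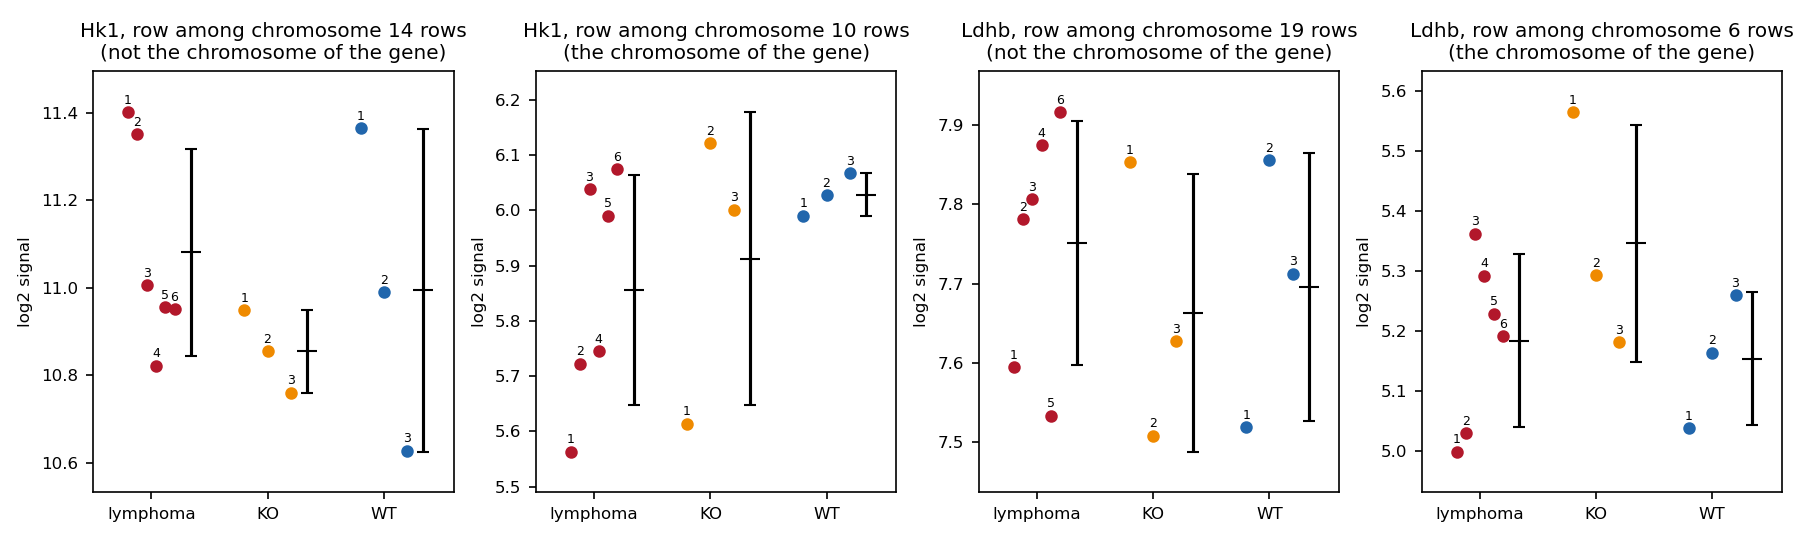
Log2 signal per array in the 2 rows named Hk1 and the 2 rows named Ldhb, with lymphomas left, KO DN3 cells in the middle and WT DN3 cells right (points with replicate numbers; bars are mean and SD). For each gene the left row lies among rows of another chromosome and is brighter (means 11.0 and 7.72), and the right row lies on the gene's own chromosome (means 5.91 and 5.22).

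The lower part of glycolysis, from triose phosphate to pyruvate, had 6 members tested, of which Pkm was called and the other 5 did not pass the test. Pgk1, the X-linked phosphoglycerate kinase that makes ATP, was 9.95 ± 0.13 in lymphomas, 9.89 ± 0.04 in KO and 9.80 ± 0.10 in WT DN3 cells. The Pgk1 row used lies among rows of chromosome 12 (19 of 20 neighbours), and a row among those of chromosome 3 was identical in every array. The third row lies among rows of the X chromosome (20 of 20). It gave close differences: 0.11 for KO minus WT, 0.16 for lymphoma minus WT and 0.05 for lymphoma minus KO DN3 cells. Pgam1, phosphoglycerate mutase, was 6.26, 6.67 and 6.48 in KO DN3 arrays and 6.69, 6.73 and 6.75 in WT DN3 arrays, so that the groups did not overlap (difference -0.25, 95% interval -0.53 to 0.03, adjusted p = 0.358). In lymphomas it ranged from 6.63 to 6.89 (difference from KO 0.28, adjusted p = 0.128). Tpi1, triose phosphate isomerase, was 7.91 ± 0.19 in lymphomas, 7.99 ± 0.16 in KO and 8.26 ± 0.12 in WT DN3 cells (lymphoma against WT -0.35, adjusted p = 0.13, and 0.0432 without lymphoma 6). The neuronal and muscle enolases Eno2 and Eno3 differed by at most 0.15 in any comparison.

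Lactate dehydrogenase A, which favours lactate formation, was 8.34 to 8.64 in the lymphomas (median 8.52), 8.62, 8.22 and 8.44 in KO DN3 arrays and 8.41, 8.09 and 8.29 in WT DN3 arrays. The groups overlapped, and lymphoma minus WT was 0.25 (95% interval 0.04 to 0.46, adjusted p = 0.199). Of the lactate exporters, Slc16a1 (MCT1) was 6.09 to 6.64 in lymphomas, 6.65, 6.48 and 6.62 in KO DN3 arrays and 6.64, 6.52 and 6.60 in WT DN3 arrays. Slc16a3 (MCT4) was 5.71 to 5.93 in lymphomas, 5.88, 5.84 and 6.44 in KO DN3 arrays and 5.98, 5.94 and 5.99 in WT DN3 arrays. KO replicate 3 stood above the other arrays for it, and lymphoma minus WT was -0.13 (adjusted p = 0.521).

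Slc2a3 (GLUT3), a high-affinity glucose importer, varied most among lymphomas. It was 5.44, 5.89, 6.67, 6.63, 5.51 and 5.67 in lymphomas 1 to 6, 5.27, 5.20 and 5.44 in KO DN3 arrays and 5.09, 5.11 and 5.31 in WT DN3 arrays. Lymphomas 3 and 4 stood more than 0.7 above the other lymphomas, and lymphoma 1 and KO replicate 3 both had 5.44. The SD over lymphomas, 0.55, was the largest of the 30 members, whose median SD there was 0.19 (0.15 over all genes). The mean differences of 0.80 from WT (95% interval 0.22 to 1.38, adjusted p = 0.13) and 0.67 from KO DN3 cells (adjusted p = 0.147) were not called, and the WT difference was called with sex as a term (adjusted p = 0.027). Slc2a1 (GLUT1), the main importer of dividing lymphocytes, was 6.36 and 6.35 in lymphomas 3 and 4 and 5.76 to 5.84 in the other 4. KO DN3 arrays had 5.85, 6.14 and 5.69, and WT DN3 arrays 5.80, 5.89 and 5.98, so lymphomas 3 and 4 were above all of them. In mean, Slc2a1 differed by 0.09 from both DN3 groups (adjusted p = 0.756 and 0.897).

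The enzymes of fructose 2,6-bisphosphate, the activator of phosphofructokinase, did not pass the test. Pfkfb3, whose kinase activity predominates, was 6.47, 6.18 and 6.50 in KO DN3 arrays and 6.87, 7.05 and 6.53 in WT DN3 arrays, without overlap and with a difference of -0.44 (95% interval -0.77 to -0.10, adjusted p = 0.19). In lymphomas it was 6.14 to 6.63 (difference from WT -0.38, adjusted p = 0.15). Pfkfb2 was 5.72 to 6.64 in lymphomas, 5.51, 6.35 and 5.73 in KO DN3 arrays and 6.11, 6.26 and 6.13 in WT DN3 arrays, and had the largest spread of the 30 members in KO cells (SD 0.44). Pfkfb4 was 4.49 to 4.69 in lymphomas, 5.09, 4.79 and 4.52 in KO DN3 arrays and 4.69, 4.52 and 4.56 in WT DN3 arrays. Bpgm, which makes 2,3-bisphosphoglycerate, was 6.11 ± 0.24 in lymphomas, 6.07 ± 0.07 in KO and 6.05 ± 0.03 in WT DN3 cells.

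None of the 4 tested pentose phosphate genes was called in any comparison, and the lowest adjusted p among them was 0.291. Pgd, the second NADPH-forming enzyme of the pathway, was 7.02, 7.10, 7.74, 7.67, 7.63 and 7.30 in lymphomas 1 to 6, 7.25, 7.59 and 7.24 in KO DN3 arrays and 7.24, 7.31 and 7.49 in WT DN3 arrays. Lymphomas 3, 4 and 5 were above all DN3 arrays and lymphomas 1 and 2 below all of them, and lymphomas 1 and 2 are also the lymphomas of the smaller side of the array split. Transketolase was 6.55 ± 0.24 in lymphomas, 6.70 ± 0.14 in KO and 6.58 ± 0.21 in WT DN3 cells. Transaldolase was 5.91 ± 0.16, 6.00 ± 0.06 and 6.10 ± 0.13 in the same order, and Pgls, the lactonase, 7.10 ± 0.16, 7.30 ± 0.12 and 7.15 ± 0.35.

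Each lymphoma is 1 array, so its values were set beside the range of the 6 DN3 arrays with no test. In the rows used, Pkm was above all DN3 arrays in all 6 lymphomas, Slc2a3 in all 6 and Pdha1 and Pfkp in 5 and 4. Lymphoma 6 had 11 of 30 members above the DN3 range and 4 below, lymphoma 5 had 10 and 3, and lymphoma 1 had 9 and 3. Lymphoma 4 had 7 and 7, lymphoma 3 had 6 and 5, and lymphoma 2 had 5 and 5. Over all genes 14.3% to 20.3% were above the range and 15.0% to 19.6% below, per lymphoma, against 16.7% to 36.7% of members above it and 3 to 7 members below. Pgk1 and Pgam1 were above the range in lymphomas 1, 5 and 6, and Aldoa and Ldha in lymphomas 1 and 5, whereas Slc2a1 and Pgd were above it in lymphomas 3 and 4, with Pgd also in lymphoma 5. Slc16a1 was below the range in lymphomas 1 to 5.

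**Figure D4:**
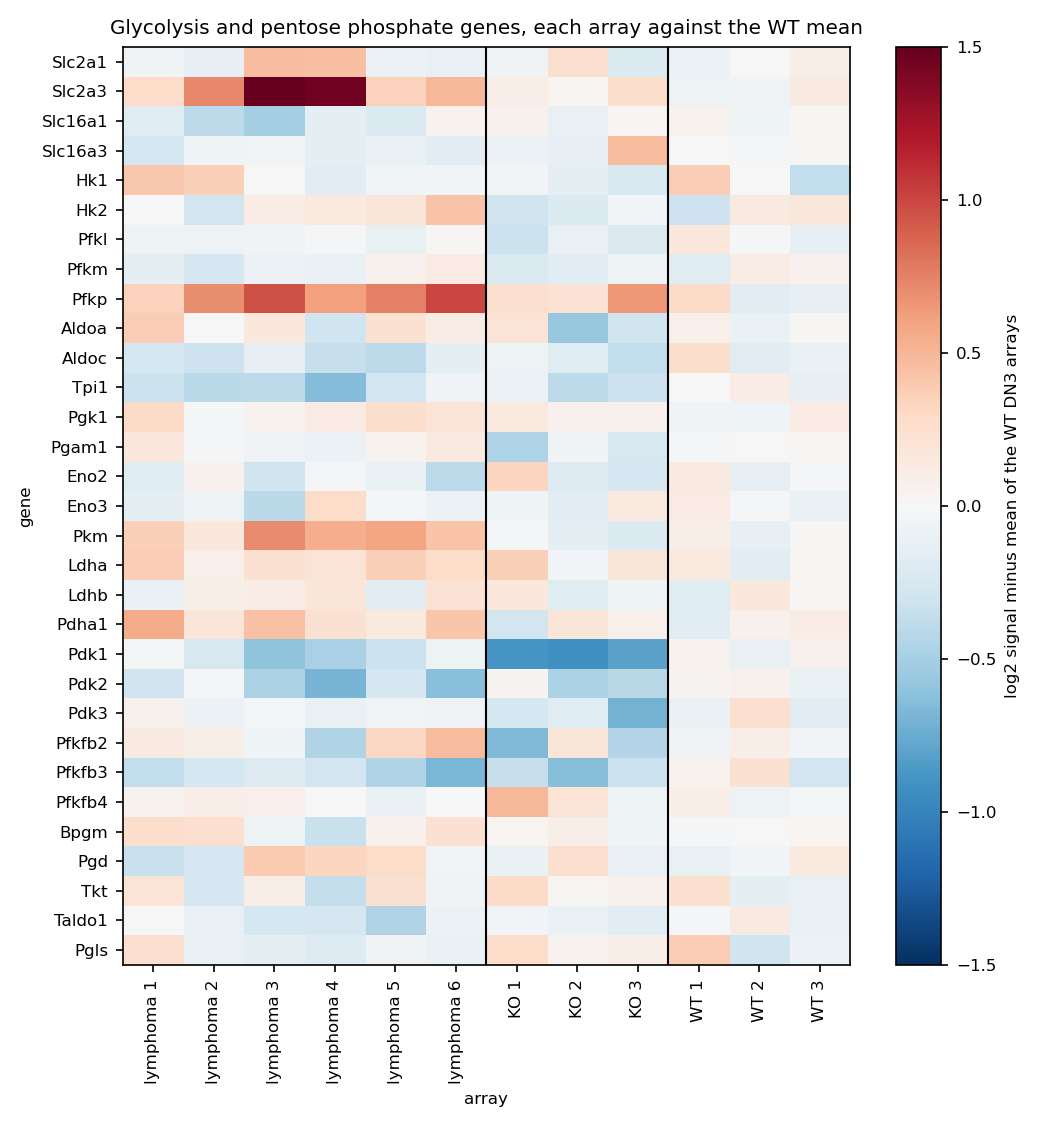
Log2 signal minus the mean of the 3 WT DN3 arrays for the 31 measured genes (rows) in the 6 lymphomas, 3 KO and 3 WT DN3 arrays (columns), in red above and blue below the WT mean. Pdk1 is blue in the 3 KO arrays, Pkm and Pfkp are red in the 6 lymphomas, and Slc2a3 is darkest red in lymphomas 3 and 4.

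Further enzymes and carriers of the same pathways (55 listed, 42 tested) gave 1 call in KO against WT DN3 cells, 3 in lymphomas against WT and 2 in lymphomas against KO DN3 cells, beside 1.99%, 5.82% and 6.62% of all genes called, with list medians of 0.022, 0.049 and -0.02. With the replicate number as a block, 4 of the 42 were called in KO against WT DN3 cells, beside 9.23% of all genes: Fbp1, Prps2 and Gpd2 higher and Pgam2 lower (-0.57, adjusted p = 0.0365). Pgam2, the muscle form of phosphoglycerate mutase, was 7.28 to 8.24 in the lymphomas (median 7.86), 5.99, 5.91 and 5.84 in KO DN3 arrays and 7.05, 6.47 and 5.93 in WT DN3 arrays. All lymphomas were above all DN3 arrays, by 1.84 in mean against KO (adjusted p = 0.000208) and 1.27 against WT (adjusted p = 0.00924, lost without WT replicate 2 at 0.0513 or 3 at 0.0608). The difference from WT was 0.58 on the smaller side of the array split and 1.61 on the larger. Of 7 skeletal muscle genes 5 were tested and none was called; their array means were 5.32 to 5.47 in lymphomas, 5.35 to 5.63 in KO and 5.26 to 5.47 in WT DN3 cells. Fbp1, a gluconeogenic phosphatase that opposes phosphofructokinase, was 5.61, 5.44 and 5.11 in KO DN3 arrays and 4.57, 4.71 and 4.46 in WT DN3 arrays (adjusted p = 0.0188). All WT arrays were below the limit of 4.78, so Fbp1 entered the test through the other groups, and the difference of 0.81 is against a signal below that limit. The Fbp1 call was lost without WT replicate 1 (adjusted p = 0.069), 2 (0.0713) or 3 (0.0802) and in 1 fit to all arrays (0.343), and lymphoma 3 had 7.01, against 4.69 to 5.59 in the other 5. Rpia, which interconverts ribose 5-phosphate and ribulose 5-phosphate, fell by 0.47 in lymphomas against WT DN3 cells (adjusted p = 0.014, lost without WT replicate 2 at 0.0867 or 3 at 0.0771). Tktl1, a transketolase-like gene, averaged 5.08 in lymphomas, 4.77 in KO and 4.65 in WT DN3 cells, so it passed the limit only through the lymphomas. It was called higher in them than in WT DN3 cells (0.43, adjusted p = 0.0148, lost without WT replicate 1 at 0.0754 or 3 at 0.0808). Dld, a subunit shared by mitochondrial dehydrogenase complexes, rose by 0.58 against KO DN3 cells (adjusted p = 0.0349, lost without KO replicate 1 at 0.141 or 3 at 0.179 and without any lymphoma but 4, at 0.0517 to 0.0643).

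Regulators of glycolysis (34 listed, 31 tested) gave 1 call in KO against WT DN3 cells, 5 in lymphomas against WT and 3 in lymphomas against KO DN3 cells, beside the same 1.99%, 5.82% and 6.62% of all genes, with list medians of -0.056, -0.037 and 0.08. With the replicate block, 4 of the 31 were called in KO against WT DN3 cells, all lower (Pik3r1, Pik3cd, Akt2 and Rictor), beside 6.35% of all genes called lower. Egln3, the HIF prolyl hydroxylase 3, was 7.87 to 9.19 in lymphomas (median 8.61), 6.55, 6.69 and 6.40 in KO DN3 arrays and 6.63, 6.83 and 6.35 in WT DN3 arrays. Every lymphoma was above every DN3 array, by 2.02 in mean against WT (adjusted p = 0.000386) and 2.08 against KO (0.000583). These calls held in 22 of 22 settings, which count the main fit and are not independent. Epas1 (HIF-2 alpha) rose by 1.09 against WT (adjusted p = 0.00236) and 0.86 against KO DN3 cells (0.0239, lost without KO replicate 2 at 0.0723 or 3 at 0.0685). Txnip, a protein that curbs glucose uptake, was 8.09 to 8.89 in lymphomas, 7.69, 7.80 and 7.40 in KO DN3 arrays and 7.92, 7.71 and 7.83 in WT DN3 arrays, and it rose by 0.84 against KO (adjusted p = 0.00789, lost without KO replicate 3 at 0.0553) and 0.65 against WT (0.0188, lost without WT replicate 1 at 0.0531, 2 at 0.111 or 3 at 0.0769). Hif1a, noticed after its values were seen, rose by 0.36 against WT (adjusted p = 0.0233, lost without WT replicate 1 at 0.117 or 2 at 0.112). This Hif1a call held in 15 of 22 settings. It was also lost with repeated quantile normalization (0.0534), 1 fit to all arrays (0.0707) and sex as a term (0.0519). With the replicate block (0.113) and on the larger side of the split (0.141) it was lost as well. Pik3cd, the delta subunit of PI3 kinase, fell by 0.67 in KO against WT DN3 cells (adjusted p = 0.0453, lost without each WT replicate at 0.0809 to 0.212, and without KO replicate 1 at 0.0642 or 3 at 0.173) and by 0.88 in lymphomas against WT (0.000536).

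Hypoxia-response genes outside glycolysis (18 listed, 16 tested) moved both ways in lymphomas. None was called in KO against WT DN3 cells by limma, beside 1.99% of all genes. At an unadjusted p under 0.05 there were 2 of the 16, against 16.3% of all genes. Under the replicate block, Bnip3l was called lower in KO cells (-0.62, adjusted p = 0.00849, against 0.0518 without the block). It was the only 1 of the 16, beside 9.23% of all genes called under the block and 6.35% called lower. In lymphomas 1 rose and 2 fell against WT, beside 2.96% of all genes called higher and 2.86% lower, and 3 rose and 2 fell against KO DN3 cells, beside 4.50% higher and 2.12% lower. The list medians of the 3 comparisons were -0.084, 0.047 and 0.11. Vegfa, the endothelial growth factor, was 5.80 to 6.45 in lymphomas (median 6.08), 6.92, 6.50 and 6.70 in KO DN3 arrays and 7.08, 6.67 and 6.54 in WT DN3 arrays. It fell by 0.68 against WT (adjusted p = 0.0239) and 0.62 against KO (0.029), with the calls lost without WT replicate 1 (0.146) or 2 (0.0718), KO replicate 1 (0.125) or 3 (0.108), and lymphoma 5 (0.0555) or 6 (0.051) against KO. Ndrg1, a stress-induced gene, was 5.75 to 6.41 in lymphomas, 6.73, 6.87 and 6.91 in KO DN3 arrays and 6.66, 6.68 and 6.91 in WT DN3 arrays, and it fell by 0.71 against WT (adjusted p = 0.0088, lost without WT replicate 3 at 0.063) and 0.80 against KO (0.00536). Ddit4 rose by 0.48 against WT (adjusted p = 0.0225, lost without WT replicate 2 at 0.12, and 0.20 and 0.62 on the smaller and larger side of the split) and 0.46 against KO (0.0128, lost without KO replicate 1 at 0.0609). Bnip3l averaged 8.98 in lymphomas, 8.29 in KO and 8.91 in WT DN3 cells. Lymphomas were thus 0.70 above KO DN3 cells (adjusted p = 0.012, lost without KO replicate 1 at 0.0626) and close to the WT mean. Kdm3a, noticed after its values were seen, rose by 0.51 against KO (adjusted p = 0.0444, lost without KO replicate 1 at 0.171 or 3 at 0.19 and without any lymphoma but 4, at 0.0672 to 0.0799), with 0.84 on the smaller side of the split and 0.35 on the larger.

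**Figure D5:**
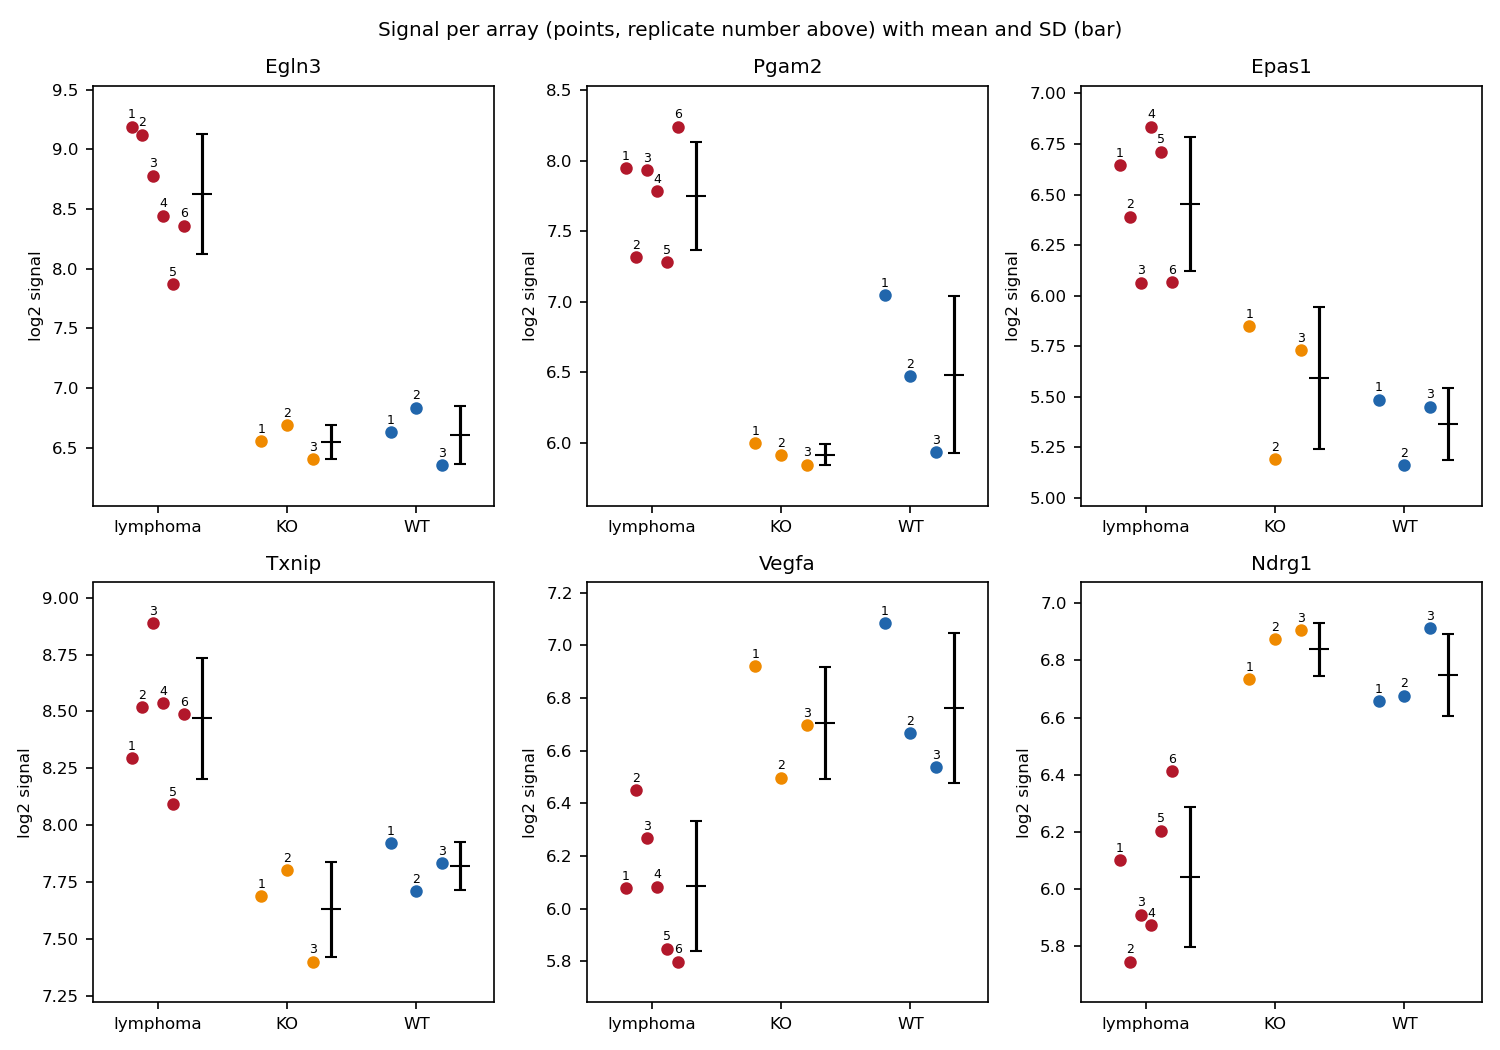
Log2 signal per array of Egln3, Pgam2, Epas1, Txnip, Vegfa and Ndrg1, with lymphomas left, KO DN3 cells in the middle and WT DN3 cells right (points with replicate numbers; bars are mean and SD). The first 4 genes are higher in all 6 lymphomas than in any DN3 array, and Vegfa and Ndrg1 are lower.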

How the data were processed

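Per the labels' protocols, NuGEN-amplified RNA was put on Affymetrix Mouse Gene 1.0 ST arrays. The log2 signals are as the authors deposited them; the submitters' processing notes name RMA and Partek, without versions or settings. Base 2 is taken from the range of the values. RMA gives all arrays 1 distribution of probe signals, so differences are relative to the other genes. The deposited row values still had array medians of 5.30 to 5.39. The median of every KO DN3 array (5.35 to 5.39) was above that of every WT DN3 array (5.31 to 5.34). Of 35556 rows, 21789 had 1 symbol in the platform annotation, 1621 several and 12146 none here; 21698 were matched to RefSeq. The brightest 1-symbol row stood for each of 19938 genes, and a gene whose mean fell below the 25th percentile, 4.78, was not tested. No value column was without a sample (0).

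The 2 groups of a comparison were fitted alone with limma 3.58.1 in R 4.3.3 (lmFit, eBayes, two-sided tests). Benjamini-Hochberg adjustment ran over all 14953 genes, and calls are those with an adjusted p under 0.05. The fit was tested on simulated data. The members, lists and rule for naming genes (called genes of a list, at most 4 per comparison) were chosen with earlier results of these data known, and Pkm's promoter was added to the rule. Same-numbered KO and WT DN3 arrays deviated together (r = 0.506, 0.418 and 0.254), and those of replicate 1 share a side of the array split. Deviations were taken from the mean of each group, so the r values are not independent of each other. No label states a pairing. The main fit therefore ignores the numbers, and the block on them, which treats the arrays as paired, is an alternative. Alternatives varied scaling, filter, row choice, variance model, samples in the fit, block, split, sex read from Xist, and each array left out. The rows on the gene's own chromosome were added after seeing the data.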

Additional observations from a re-analysis of the deposited data

Results flagged for a closer look

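Pgls, the lactonase of the pentose phosphate pathway, had a log2 signal of 7.41 in lymphoma 1, apart from the other 5 lymphomas at 6.96 to 7.11. It was flagged because the gap to the nearest lymphoma was 0.672 of the group's range, above Dixon's 95% value for 6 arrays. Of the 31 members examined it was the only one flagged, and chance flags about 1 in 20. KO DN3 arrays had 7.43, 7.21 and 7.25, and WT DN3 arrays 7.54, 6.86 and 7.07. The 3 highest values of Pgls among the 12 arrays were those of lymphoma 1, KO replicate 1 and WT replicate 1, on the smaller side of the array split, while lymphoma 2, the other array of that side, had 7.06. The part of that split in the value was not tested.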

How the results depend on the processing

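Pdk1 stayed called lower in KO against WT DN3 cells under all alternatives, with differences of -0.929 to -0.807. Blocking on the replicate number (a paired fit) called 2 members (Pdk1 and Pdk3) and 1380 genes in place of 298. In lymphomas against WT DN3 cells, 2 members were called, but 1 with repeated quantile normalization, 1 with the block (Slc2a3, in a design the numbers do not pair), 4 with sex as a term (Pdk1, Pfkp, Pkm and Slc2a3) and 0 to 3 with single arrays left out (1 without WT replicate 1 or lymphoma 3, 4 or 5, 0 without WT replicate 2 or 3, 3 without lymphoma 2). In lymphomas against KO DN3 cells, 2 were called, but 1 with repeated quantile normalization, 0 with the block, 1 on the larger side of the array split and 0 to 2 with single arrays left out (1 without KO replicate 1, 0 without 3). The Pkm difference between KO and WT DN3 cells turned to 0.013 with repeated quantile normalization. Losses named above for the further genes are mainly those without single arrays. On the larger side of the split alone, calls against WT were also lost for Hif1a, Txnip, Ndrg1, Vegfa and Tktl1. Against KO they were lost for Epas1, Txnip, Vegfa, Dld and Kdm3a, and in KO against WT for Fbp1 and Pik3cd. The block lost Hif1a, Ddit4, Vegfa and Tktl1 against WT and Ddit4, Vegfa, Dld and Kdm3a against KO. The number of all genes called moved as well: for KO against WT DN3 (298) to 754 with the split as a term, 144 on its larger side, 126 with sex as a term and 57 to 443 with single arrays left out; for lymphomas against WT (871) to 549 on the larger side and 560 to 872 with arrays left out; and for lymphomas against KO (990) to 1702 with the split as a term, 325 on its larger side and 431 to 1361 with arrays left out. The cause of these changes was not tested. The numbers of arrays limit what could be called.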
